A study of Mus musculus with 9 samples.

Results

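Brains of mice that carry an amyloid transgene array, with or without an added Cd5l transgene, were set against wild-type brains, to ask what the 2 amyloid genotypes changed in common. The 6 amyloid libraries, of 9 in all, were chosen by the genotype in the labels: 3 from 5xFAD mice and 3 from 5xFAD/Cd5l tg/wt mice, each genotype given equal weight, against 3 wild-type libraries. All mice were 7 months old, each library came from 1 mouse, and bulk RNA was taken from the brain after removal of the cerebellum. 5xFAD mice express mutant human amyloid precursor and presenilin transgenes under the neuronal Thy1 promoter, and 5xFAD/Cd5l tg/wt mice also carry mouse Cd5l, a secreted macrophage protein, under the human PDGF-B promoter. The wild-type mice carry none of these transgenes, so that effects of the amyloid transgenes, of their insertion and of the amyloid they deposit cannot be told apart. The sex of the mice is not labelled.

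In brains with amyloid deposits, microglia gather at plaques and pass from a surveying state into a phagocytic one. The receptor TREM2 and its adaptor TYROBP carry the signal for the later step of that change, through an ITAM motif that recruits the kinase SYK. Lysosomal proteases, complement and antigen-presenting molecules are known parts of this response, and neighbouring astrocytes become reactive.

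The libraries held 14575416 to 17865150 counts, and 17575 of 56748 genes were tested. Levels are given as CPM, counts per 1000000 counts of the library after scaling, and changes as log2 fold changes ± SE of the mean of both amyloid genotypes minus wild-type. Adjusted p-values are from edgeR's quasi-likelihood test with Benjamini-Hochberg adjustment over all tested genes, and a gene passed at an adjusted p under 0.05. They measure the spread among libraries of the same genotype, and a difference between the amyloid genotypes does not add to that spread. Cd5l drew 2553, 2822 and 3551 counts from the mice that carry its transgene and 0 from each 5xFAD mouse, against 0, 1 and 0 from wild-type mice, as their labels state. A mean over both amyloid genotypes therefore describes neither of them at Cd5l, and no pooled fold change is given for it. Thy1, whose promoter drives the amyloid transgenes, had 1444 to 1981 CPM in amyloid libraries (median 1631), against 653, 662 and 590 CPM in wild-type libraries, without overlap. Its log2 fold change was 1.4 ± 0.07 (adjusted p = 4.3e-07), and these counts do not separate the mouse gene from transgene transcripts that carry Thy1 sequence. Mouse App did not pass (-0.02 ± 0.05, adjusted p = 0.94), and the human transgene is not a row of the table.

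Promoters of 4 genes at the centre of the rise are shown because they differ in whether they hold the core letters GAGGAA of the binding motif of PU.1, the transcription factor encoded by Spi1 that maintains microglia, or the E-box CACGTG, which lysosomal genes can carry. They are RefSeq sequences of build GRCm38.p6, from 250 bases before to 50 after the start of transcription, and capitals mark a match on either strand.
Cst7 (chr2:150570165-150570464, plus strand): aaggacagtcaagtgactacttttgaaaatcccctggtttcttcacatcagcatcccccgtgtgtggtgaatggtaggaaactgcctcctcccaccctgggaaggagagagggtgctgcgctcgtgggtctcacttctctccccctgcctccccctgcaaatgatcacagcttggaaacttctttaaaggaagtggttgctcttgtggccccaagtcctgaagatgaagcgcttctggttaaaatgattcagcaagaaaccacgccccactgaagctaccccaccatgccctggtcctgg
Clec7a (chr6:129472730-129473029, minus strand): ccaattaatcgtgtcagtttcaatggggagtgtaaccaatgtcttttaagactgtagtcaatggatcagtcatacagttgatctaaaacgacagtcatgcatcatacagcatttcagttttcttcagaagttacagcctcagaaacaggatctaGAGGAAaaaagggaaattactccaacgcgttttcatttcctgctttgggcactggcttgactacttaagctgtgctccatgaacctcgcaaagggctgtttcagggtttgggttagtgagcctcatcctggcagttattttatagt
Trem2 (chr17:48346151-48346450, plus strand): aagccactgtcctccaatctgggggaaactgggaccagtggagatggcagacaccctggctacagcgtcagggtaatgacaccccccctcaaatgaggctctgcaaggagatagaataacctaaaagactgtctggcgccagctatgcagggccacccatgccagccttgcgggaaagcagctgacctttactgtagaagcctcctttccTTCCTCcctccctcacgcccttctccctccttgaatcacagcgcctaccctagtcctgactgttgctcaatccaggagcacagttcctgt
Ctsd (chr7:142387778-142388077, minus strand): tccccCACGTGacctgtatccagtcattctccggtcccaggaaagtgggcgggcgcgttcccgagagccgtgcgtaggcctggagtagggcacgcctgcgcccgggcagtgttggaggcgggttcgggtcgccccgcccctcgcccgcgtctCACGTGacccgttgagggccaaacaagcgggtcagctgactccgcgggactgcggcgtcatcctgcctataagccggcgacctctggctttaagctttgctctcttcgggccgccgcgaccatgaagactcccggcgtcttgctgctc
GAGGAA lay 96 bases before the start in Clec7a and, on the other strand, 40 bases before the start in Trem2. CACGTG, which reads the same on both strands, lay 245 and 98 bases before the start in Ctsd, and neither motif was found in the window of Cst7. Of all 27025 promoters in the table, 28.3% held GAGGAA and 7.24% held CACGTG. Since 56 of the 213 genes that rose had no entry, leaving 73.7% with one, no share is given for the rising genes.

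Of the 17575 genes tested, 279 passed (1.59%), of which 213 rose (1.21%) and 66 fell (0.376%). Past 2-fold 126 genes rose and 26 fell, past 4-fold 33 rose and 13 fell, and past 16-fold 8 rose and 6 fell. Of the rising genes, 209 were protein-coding (98.1%, against 82.8% of all tested genes). In 208 of them all 6 amyloid libraries lay above all 3 wild-type libraries, which was so for 2.78% of all tested genes. The median log2 fold change of all tested genes was -0.02.

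Among rising genes with a mean of at least 1 CPM and no overlap, Cst7, Itgax and Clec7a, genes of plaque-associated microglia, rose most. Cst7, whose product cystatin F inhibits cathepsins in lysosomes (GRCm39 chromosome 2, 150412335 to 150420864), ranged from 20.2 to 39.9 CPM in amyloid libraries (median 30.4), against 0.233, 0.182 and 0.207 CPM in wild-type libraries. The lowest amyloid library was far above the highest wild-type library, and the log2 fold change was 7.18 ± 0.35 (adjusted p = 4.26e-07). Clec7a, the beta-glucan receptor Dectin-1 (chromosome 6, 129438554 to 129449742), ranged from 10.6 to 24.0 CPM in amyloid libraries (median 14.2), against 0.581, 0.122 and 0.346 CPM in wild-type libraries. It rose by 5.44 ± 0.31 without overlap. Itgax, the integrin chain CD11c, rose by 5.64 ± 0.41, with 8.87 to 21.8 CPM in amyloid libraries and 0.122 to 0.407 CPM in wild-type libraries. Trem2 (chromosome 17, 48653429 to 48661175) ranged from 45.8 to 81.2 CPM in amyloid libraries (median 64.2), against 15.8, 14.1 and 11.0 CPM in wild-type libraries, a rise of 2.23 ± 0.15 (adjusted p = 4.84e-06). Tyrobp rose by 2.12 ± 0.14 and Lyz2, the macrophage lysozyme, by 2.14 ± 0.16.

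**Figure D1:**
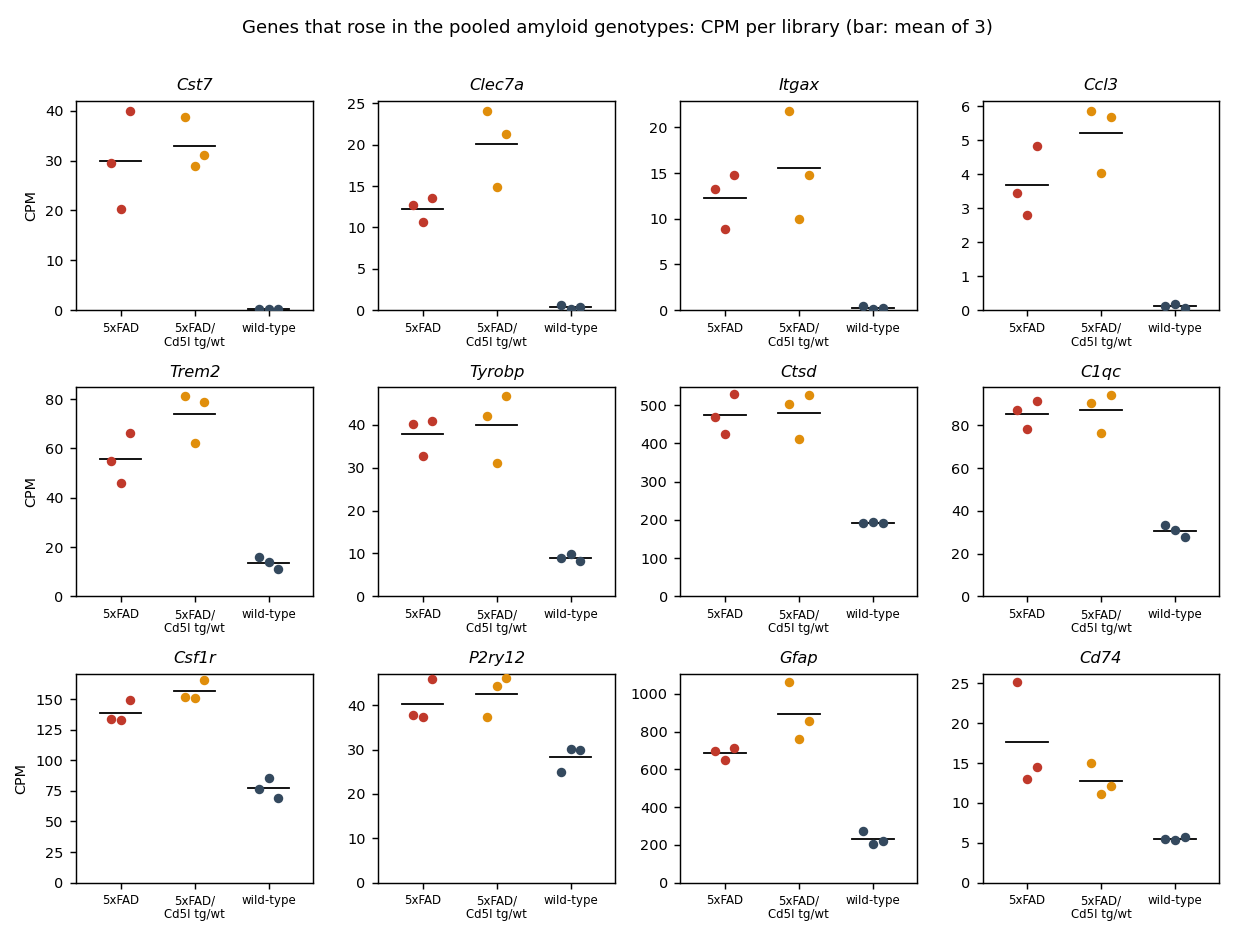
CPM of 12 genes that rose, with 3 libraries (points) for each of the genotypes 5xFAD, 5xFAD/Cd5l tg/wt and, on the right, wild-type, with the mean of each genotype (bars), on linear axes that start at 0. In each panel the 6 amyloid libraries lie above the 3 wild-type libraries, and Cd74 has 1 5xFAD library at 25.2 CPM.

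Of the stage 2 list, genes that plaque-associated microglia switch on with Trem2 present, 13 of 24 tested genes rose, none fell, and the median log2 fold change was 0.77, against -0.02 over all tested genes. Besides those above, Ccl6 rose by 3.53, Lilrb4a, an inhibitory receptor, by 3.16, and Cd68, a lysosomal membrane protein of phagocytes, by 2.46. Lpl, a lipase, rose by 0.88. Spp1, at -0.29, and Fabp5, at 0.08, were among the 11 that did not pass. Of the stage 1 list, which needs no Trem2, 7 of 11 rose (median 0.60), with Apoe at 0.36 and Fth1, the ferritin heavy chain, at -0.09 among the 4 that did not pass.

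Genes of resting microglia rose as well. Of the homeostatic list 14 of 19 rose and none fell (median 0.71), and 9 passed without wild-type replicate 1. Csf1r, the receptor that microglia need to survive, ranged from 133 to 166 CPM in amyloid libraries (median 151), against 76.3, 85.7 and 69.6 CPM in wild-type libraries, a rise of 0.93 ± 0.08. P2ry12, a purinergic receptor of surveying microglia, rose by 0.55 and Tmem119 by 0.45. In bulk RNA more cells of a type and more RNA per cell cannot be told apart. The summed level of 4 microglial markers, Tmem119, P2ry12, Cx3cr1 and Csf1r, was 258 to 339 CPM in amyloid libraries and 164 to 197 CPM in wild-type libraries, a ratio of means of 1.72. Relative to that sum, Cst7 was 86.1 times and Trem2 2.73 times as high in amyloid as in wild-type libraries, while the ratio was 1.11 for Csf1r and 0.846 for P2ry12, which are in the sum themselves. The part of the marker sum in the other rises was not tested.

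Of the ITAM receptors and their signalling proteins, 13 of 18 rose (median 1.18). Fcgr3, an activating Fc receptor, ranged from 25.7 to 28.1 CPM in amyloid libraries (median 26.9), against 10.5, 11.9 and 10.5 CPM in wild-type libraries, and rose by 1.29 ± 0.08. Fcgr2b, the inhibitory Fc receptor, rose by 2.04 and Ptpn6, the phosphatase SHP-1, by 1.64. Syk itself was at 0.56 and did not pass. Reads of the closely related Fc receptor genes may have been shared, since the handling of such reads is not given. Among transcription factors of microglia 4 of 14 rose, among them Irf8 by 1.59 ± 0.12, Cebpa by 1.04 and Spi1 by 0.89.

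Lysosomal genes made up the longest list with rises, 17 of 32 (median 0.37). Ctsd, the protease cathepsin D (chromosome 7, 141929648 to 141941775), ranged from 411 to 529 CPM in amyloid libraries (median 486), against 191, 195 and 191 CPM in wild-type libraries, and rose by 1.31 ± 0.09 (adjusted p = 4.94e-06). Ctss, a cathepsin that trims the MHC class II invariant chain, rose by 1.5 ± 0.10. Lamp1, at 0.13, and Npc1, at -0.13, did not pass. Of the phagocyte oxidase and actin genes 14 of 20 rose (median 1.04), with Cybb, the catalytic oxidase subunit, at 1.60 and Itgb2 at 1.68. This count was 9 without wild-type replicate 1 and 9 without wild-type replicate 3.

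Of 17 complement genes, 8 rose (median 0.49). C1qc, a chain of the first complement component, ranged from 76.6 to 94.3 CPM in amyloid libraries (median 88.8), against 33.4, 31.0 and 27.6 CPM in wild-type libraries, and rose by 1.49 ± 0.09. C1qa and C1qb rose by 1.44 and 1.45, and C3ar1, the receptor of a C3 fragment, by 1.85. C4b rose by 1.55 ± 0.18, and its near-identical neighbour C4a stood at -0.25, so reads of this pair may have been split. C3 was at 0.49 and did not pass.

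Chemokine and cytokine genes rose in 5 of 14 cases (median 1.02), 8 with DESeq2. Ccl3, which attracts leukocytes, ranged from 2.81 to 5.86 CPM in amyloid libraries (median 4.43), against 0.116, 0.182 and 0.0691 CPM in wild-type libraries, a rise of 5.05 ± 0.38 from a few counts per wild-type library. Tgfb1 rose by 0.87. Of Toll-like receptor and inflammasome genes 8 of 20 rose (median 1.01), among them Tlr2 by 1.72 and its co-receptor Cd14 by 1.45. MHC class II genes rose in 4 of 8 cases (median 1.05), Cd74, the invariant chain, by 1.44 ± 0.21, and 2 passed without wild-type replicate 1 and 2 without wild-type replicate 2. MHC class I genes rose in 4 of 14 cases (median 0.48), with B2m at 0.97. That count was 1 without any of 5xFAD replicate 1 or 3, 5xFAD/Cd5l tg/wt replicate 3 or wild-type replicate 2 or 3, and 2 without wild-type replicate 1. Interferon-response genes had a median of 0.67, but only Bst2 (1.14) and Trim30a (0.97) of 26 passed. Neither passed without 5xFAD replicate 1 or 3, 5xFAD/Cd5l tg/wt replicate 3 or wild-type replicate 2 or 3, and 1 passed without wild-type replicate 1.

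**Figure D2:**
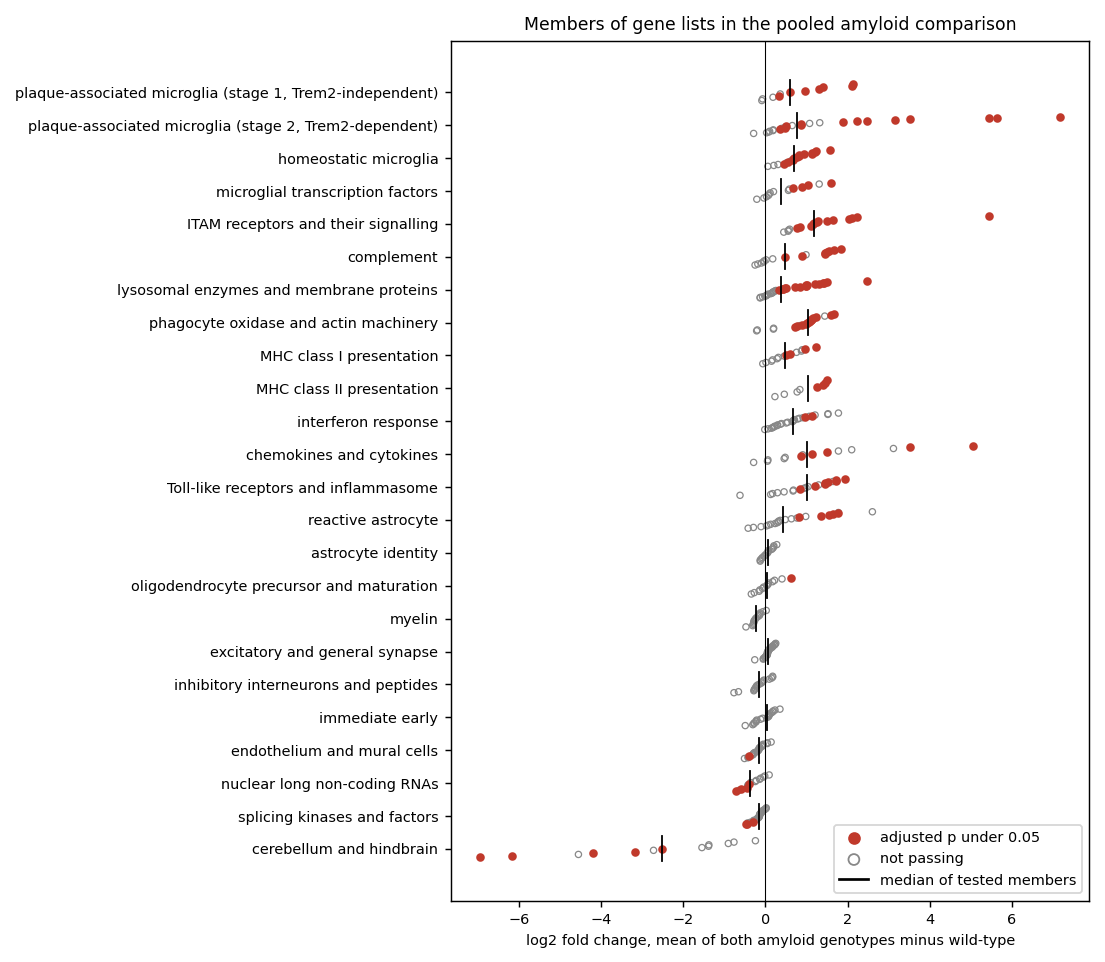
Log2 fold changes of the tested members of 24 gene lists, mean of both amyloid genotypes minus wild-type (horizontal axis), with members that passed filled, members that did not pass open, and the median of each list as a bar. The ITAM list has a median of 1.18 and the myelin list one of -0.24, and the 5 filled members of the cerebellum list lie at -2.52 or lower.

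Of 22 genes of reactive astrocytes 5 rose (median 0.42), while no gene of astrocyte identity passed. Gfap, the filament protein by which reactive astrocytes are known (chromosome 11, 102778162 to 102791738), ranged from 650 to 1064 CPM in amyloid libraries (median 738), against 272, 205 and 218 CPM in wild-type libraries, and rose by 1.76 ± 0.11 (adjusted p = 4.16e-06). Serpina3n, a protease inhibitor, rose by 1.65 ± 0.19 and Osmr, the oncostatin M receptor, by 1.35. The count of reactive genes was 10 with DESeq2 and 3 with 1 coefficient for the 6 amyloid libraries. Of the identity genes 0 of 15 passed (median 0.06), with the water channel Aqp4 at 0.28. Of genes described in disease-associated oligodendrocytes 7 of 13 rose, and each of those 7 is also in a microglial, astrocyte, lysosomal or MHC list. Of 13 genes of oligodendrocyte precursors and their maturation, 1 rose, Gpr17, a receptor of cells about to myelinate, by 0.62 ± 0.10. None of 14 myelin genes passed, although 13 had negative values (median -0.24).

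No gene passed among 26 synaptic genes (median 0.06), 18 interneuron genes (-0.16), 19 immediate early genes (0.05) or 14 granin and neuropeptide genes (-0.06). Genes of neurons outside these lists did fall, among them Slc6a5, Slc18a3, Prph and Slc5a7, described below. The summed neuronal markers were 5273 to 6125 CPM in amyloid libraries and 5381 to 5749 CPM in wild-type libraries. Heat shock (0 of 18), respiratory chain (0 of 21) and cholesterol synthesis genes (0 of 20) did not pass either. In amyloid processing Clu and Cst3 passed of 21, at 0.34 and 0.40. Clu did not pass without 5xFAD replicate 3 or wild-type replicate 3 (adjusted p up to 0.0558), and Cst3 did not pass in 7 of the 9 fits that left out 1 library (up to 0.155). Ch25h, which makes 25-hydroxycholesterol, rose by 2.12 and Lpl by 0.88, as 2 of 25 lipid genes, and Slc11a1, a metal transporter of phagosomes, by 2.27 and Ftl1 by 0.36, as 2 of 14 iron genes. Ch25h did not pass in 7 of the 9 fits (adjusted p up to 0.148), and Ftl1 did not pass without wild-type replicate 2 or 3 (up to 0.0615). Border macrophage genes passed in 0 of 7 cases. Summed lymphocyte markers were at most 0.599 CPM in amyloid libraries and 0.349 CPM in wild-type libraries, and summed neutrophil markers at most 0.226 CPM in amyloid libraries and 0.415 CPM in wild-type libraries.

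A few of the rising genes differed between the amyloid genotypes, among them Lilrb4a, C4b and Ptprc, which were higher with the Cd5l transgene. Both comparisons with wild-type use the same wild-type libraries, so their values are given side by side: the median of the 213 rising genes was 1.30 in 5xFAD/Cd5l tg/wt and 1.02 in 5xFAD. The difference between the genotypes, which uses no wild-type library, passed for 1095 of all tested genes (6.23%), 939 higher (5.34%) and 156 lower (0.888%) in 5xFAD/Cd5l tg/wt. Of the 213 rising genes it passed for 14 (6.57%), a share near that of all tested genes, and all 14 were higher with the transgene. As a description, the difference was positive for 182 of them (85.4%), against 51% of all tested genes, with a median of 0.25, against 0.01. In 74 of them (34.7%) all 3 5xFAD/Cd5l tg/wt libraries lay above all 3 5xFAD libraries, as in 16.6% of all tested genes. Lilrb4a had 2.93, 3.84 and 4.46 CPM in 5xFAD/Cd5l tg/wt libraries, against 0.993, 0.617 and 1.34 CPM in 5xFAD libraries, a difference of 1.94 ± 0.33 (adjusted p = 0.00542). Ptprc, the leukocyte phosphatase CD45, differed by 0.82 ± 0.18 and Nckap1l, an actin regulator of blood cells, by 0.51 ± 0.11. C4b differed by 0.92 ± 0.19. By contrast Ctsd differed by 0.02 ± 0.10 and C1qc by 0.03 ± 0.10, neither of which passed.

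**Figure D3:**
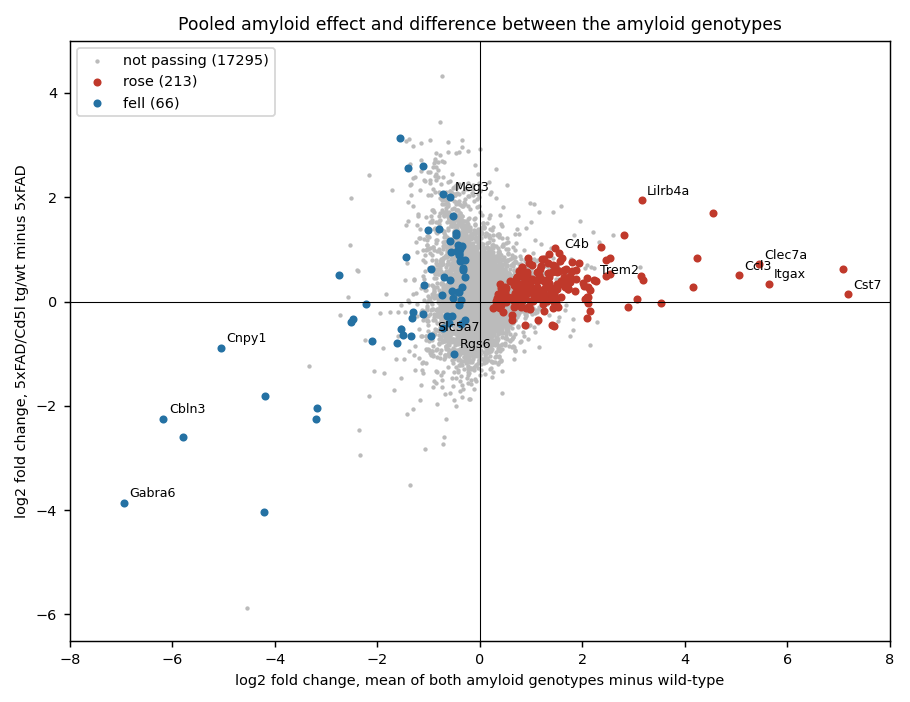
Each tested gene but Cd5l by its log2 fold change in the mean of both amyloid genotypes minus wild-type (horizontal) and in 5xFAD/Cd5l tg/wt minus 5xFAD (vertical), with 213 genes that rose in red, 66 that fell in blue and 17295 others in grey. Most red points lie slightly above 0 on the vertical axis, while blue points spread to both sides.

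The 66 falls were fewer than the 213 rises, and many of these genes differed between the amyloid genotypes. That balance depended on the setting. There were 433 rises and 540 falls with no filter on low counts, and 237 rises and 195 falls without 5xFAD/Cd5l tg/wt replicate 1. With 1 coefficient for the 6 amyloid libraries, where a difference between the genotypes counts as spread, 159 rose and 16 fell. The list of nuclear long non-coding RNAs then held 0 falls, against 4, and that of splicing kinases and factors 0, against 3. Of the 66 falling genes, 29 had all 6 amyloid libraries below all 3 wild-type libraries, as did 1.49% of all tested genes. In 25 the difference between the amyloid genotypes passed with a higher level in 5xFAD/Cd5l tg/wt, and their median log2 fold change from wild-type was 0.06 in 5xFAD/Cd5l tg/wt and -0.96 in 5xFAD. In 18 of these 25 the 5xFAD/Cd5l tg/wt value was above wild-type. Meg3, an imprinted long non-coding RNA, had 1457, 2236 and 2167 CPM in 5xFAD/Cd5l tg/wt libraries and 474, 443 and 537 CPM in 5xFAD libraries, against 1384, 1758 and 1248 CPM in wild-type libraries. Only its 5xFAD libraries were low, and its pooled value of -0.59 ± 0.13 averages 0.42 and -1.59. Clk1, a kinase of splicing factors, averaged 0.17 in 5xFAD/Cd5l tg/wt and -1.10 in 5xFAD, and Abcb1a, an efflux pump of brain vessels, 0.04 and -0.85. The difference passed, higher in 5xFAD/Cd5l tg/wt, for 12 of 16 nuclear long non-coding RNAs and 19 of 26 splicing genes. It did so for 11 of 23 endothelial and mural genes, against 5.34% of all tested genes. Long non-coding RNAs held 1.146% to 1.195% of counts in 5xFAD libraries, 1.388% to 1.652% in 5xFAD/Cd5l tg/wt and 1.351% to 1.531% in wild-type libraries. The part of that share in these differences was not tested. Malat1, Firre and Xist, nuclear RNAs, and Rnpc3 and Snrnp70, parts of the spliceosome, were likewise higher in 5xFAD/Cd5l tg/wt than in 5xFAD. Of the pooled falls of this set, Abcb1a passed in all 9 fits that left out 1 library, while Meg3 did not pass in 6, Malat1 in 7, Snrnp70 in 6, Rnpc3 in 4, Clk1 in 2, Firre in 2 and Xist in 1. Without wild-type replicate 3 and 5xFAD/Cd5l tg/wt replicates 2 and 3, the values were -1.12 for Malat1, -0.90 for Meg3 and -0.58 for Clk1. That fit keeps only replicate 1 of 5xFAD/Cd5l tg/wt. The libraries of that genotype left out held 2236 and 2167 CPM of Meg3, against 1457 CPM in the library kept. Xist had 478.7, 451 and 574.5 CPM in 5xFAD libraries and 909.4, 1016 and 997.2 CPM in 5xFAD/Cd5l tg/wt libraries. In wild-type libraries it had 880.3, 969.7 and 931 CPM. Counting was not stated to use strand, so reads of Xist and its antisense partner cannot be told apart. Rgs6, a regulator of G protein signalling, was the reverse, with 29.6, 29.9 and 29.8 CPM in 5xFAD/Cd5l tg/wt libraries and 59.8, 64.2 and 54.9 CPM in 5xFAD libraries, against 60.9, 56.9 and 61.3 CPM in wild-type libraries.

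A second set of falls varied among the wild-type libraries. Cbln3, Cnpy1, Slc6a5, Gabra6, En2 and Pcp2 were highest in wild-type replicate 3, next in replicate 1 and lowest in replicate 2. Fits without replicate 3 kept replicate 1. Summed cerebellar markers were 11.8 to 28.9 CPM in amyloid libraries, against 53.1, 16.8 and 555 CPM in wild-type libraries, the highest in wild-type replicate 3, although the cerebellum had been removed. In 12 of the 66 falling genes that library was more than 1.5 times both other wild-type libraries, and 3 of these 12, Cbln3, Cnpy1 and Slc6a5, passed without it. Cbln3, a granule cell gene, had 0.395 to 4.83 CPM in amyloid libraries (median 0.501), against 18.5, 2.98 and 192 CPM in wild-type libraries, where the groups overlapped. Slc6a5, the glycine transporter of inhibitory hindbrain neurons, had 0.337 to 12.3 CPM in amyloid libraries (median 2.57), against 28.9, 11.7 and 57.7 CPM in wild-type libraries, also with overlap. Without wild-type replicate 3 Cbln3 fell by 3.47 (adjusted p = 0.0353) and Slc6a5 by 2.49 (0.0334) on the log2 scale. Gabra6, En2, Pcp2 and Slc6a5 are the other members of the cerebellum and hindbrain list that fell, 5 of 13 in all (median -2.52), and the count was 2 without wild-type replicate 3 and 10 without wild-type replicate 2. The part of the cerebellar markers in these falls was not tested.

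Another set of falls, which shares Cnpy1 with the set above, was low in all 6 amyloid libraries. Of 28 falling genes without overlap and without a passing difference between the genotypes, 8 passed without wild-type replicate 3. Slc18a3, the vesicular acetylcholine transporter, ranged from 1.69 to 4.60 CPM in amyloid libraries (median 2.63), against 8.14, 6.20 and 6.08 CPM in wild-type libraries, and fell by 1.34 ± 0.21 on the log2 scale (adjusted p = 0.00465). Prph, a neuronal intermediate filament, fell by 1.5 ± 0.21, Calca, the gene of calcitonin gene-related peptide, by 1.53 ± 0.25, and Ubap1l by 1.44 ± 0.21. In 5xFAD replicate 2, Slc18a3 at 4.60 CPM and Calca at 1.68 CPM were the highest of the 6 amyloid libraries. So were Cbln3 at 4.83, Gabra6 at 2.69 and Slc6a5 at 12.3 CPM. Prph was nearly level over the 5xFAD libraries, at 3.38, 3.31 and 3.35 CPM, and Ubap1l was highest in 5xFAD/Cd5l tg/wt replicate 1. In wild-type libraries Prph had 9.88, 4.92 and 8.02 CPM and Calca 3.43, 2.31 and 3.73 CPM, both lowest in replicate 2. Ubap1l, at 6.28, 6.69 and 6.71 CPM, was lowest in wild-type replicate 1, and Slc18a3 in replicate 3. The part of hindbrain tissue in these falls was not tested. Calca did not pass without wild-type replicate 3 and 5xFAD/Cd5l tg/wt replicates 2 and 3 (adjusted p = 0.0543). The others were Kif13b, Carns1, Ahnak2 and Cnpy1, which was also among the 12 genes highest in wild-type replicate 3. Cnpy1 had 0.135 to 1.12 CPM in amyloid libraries, against 6.63, 1.52 and 47.5 CPM in wild-type libraries, and its value of -5.05 was -2.89 without that replicate. Without wild-type replicate 1, Kif13b (adjusted p = 0.0567), Carns1 (0.0888) and Ahnak2 (0.0619) did not pass. Slc5a7, the choline transporter of cholinergic neurons (chromosome 17, 54580618 to 54606062), also fell, with 6.92, 8.97 and 8.63 CPM in 5xFAD/Cd5l tg/wt libraries and 12.2, 13.1 and 13.6 CPM in 5xFAD libraries, against 18.9, 17.4 and 23.1 CPM in wild-type libraries. Its pooled value was -0.94 ± 0.12 (adjusted p = 0.000849), and the difference between the genotypes, -0.66 ± 0.14, passed.

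**Figure D4:**
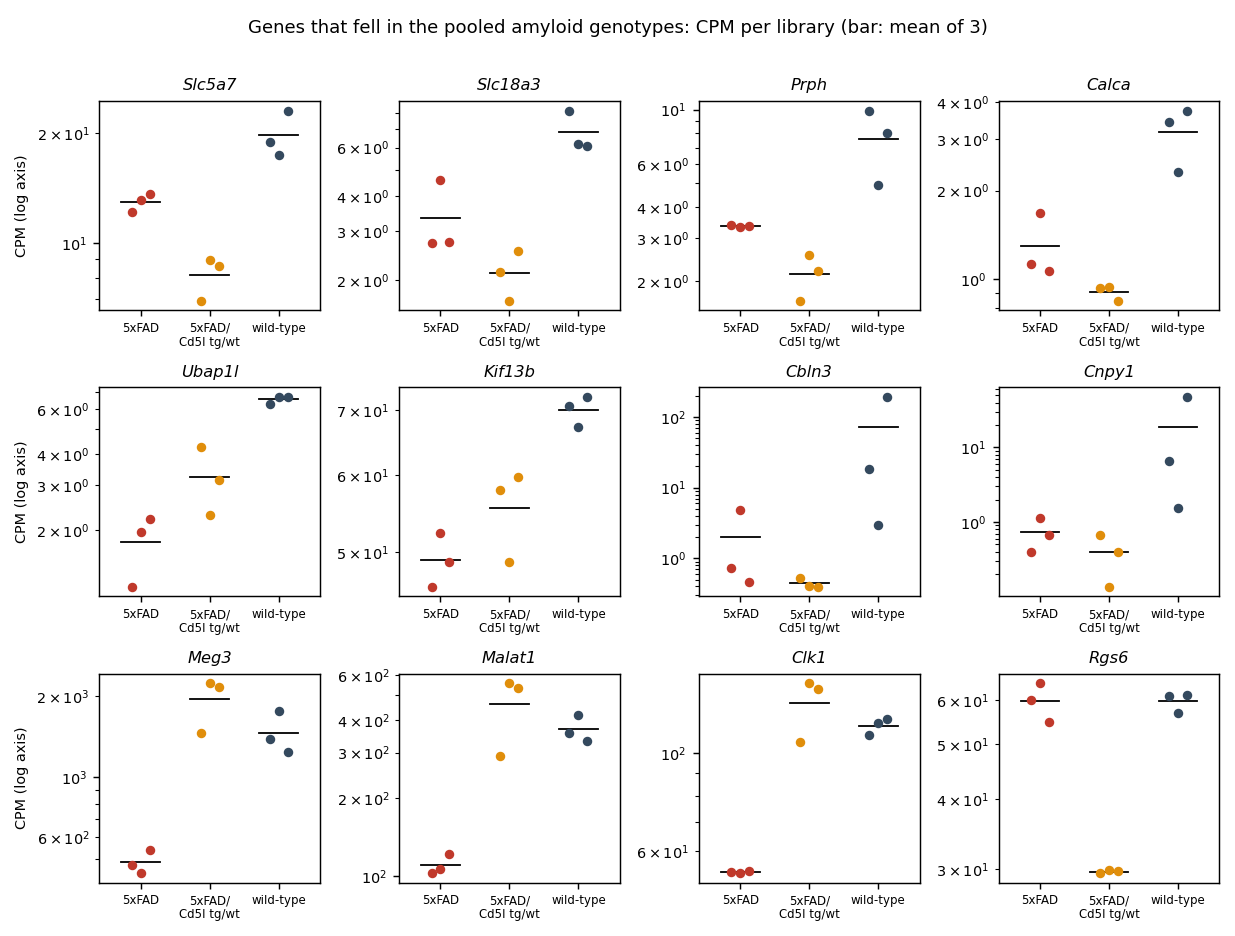
CPM on log axes of 12 genes that fell, in every library (points), the amyloid genotypes left of wild-type, with the mean of each genotype (bars). Slc18a3 and Prph are low in all 6 amyloid libraries, Cbln3 and Cnpy1 are highest in wild-type replicate 3, and Meg3, Malat1 and Clk1 are low in 5xFAD libraries.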

How the data were processed

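The authors deposited 1 table of unnormalized read counts for 56748 genes in 9 libraries of total RNA. Per the submitters' processing notes the build is GRCm39. For the aligner, the counting tool and strandedness, nothing is given in the sources used.

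Low genes were dropped with filterByExpr of edgeR at a minimum count of 10 and a total of 15, which removed 0.121% to 0.161% of each library's counts, and scaled by TMM. All 9 libraries were fitted with 1 coefficient per genotype (edgeR 4.0.16, limma 3.58.1, R 4.3.3). The mean of both amyloid coefficients minus wild-type, and 5xFAD/Cd5l tg/wt minus 5xFAD, were tested two-sided. The SE is the log2 fold change over the square root of F. The procedure was tested on simulated data in which both amyloid genotypes changed alike, so genes that differ between them were not covered.

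The members, lists and tests were chosen with earlier results of these data known. Named genes were Cd5l, Thy1 and App, genes of either direction that had the smallest p or largest change among those with a mean of at least 1 CPM and no overlap, up to 3 passing members of each list, and those with the smallest p between the amyloid genotypes. Other genes named were chosen after their values were seen. Some genes that this rule names are not reported here, and the sum of 4 microglial markers was chosen with the data known. Alternatives were RLE and upper-quartile scaling, other filters, DESeq2 1.42.0, limma-voom, a replicate block, gene-length offsets, 1 coefficient for all amyloid libraries, and leaving out libraries. Figures were drawn with matplotlib 3.10.9.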

Additional observations from a re-analysis of the deposited data

Results flagged for a closer look

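The amyloid genotypes differed, by the test of 5xFAD/Cd5l tg/wt minus 5xFAD, at 19 of 87 named genes, against 6.23% of all tested genes. Since 12 of the named genes were chosen because that difference passed, the count follows in part from the choice. Among rising genes the log2 difference was 1.94 for Lilrb4a, 0.92 for C4b, 0.82 for Ptprc, 0.68 for Rasal3, 0.51 for Nckap1l and 0.46 for Man2b1. Lilrb4a passed in all 9 fits that left out 1 library, while C4b did not pass without 5xFAD replicate 1 or 2, and Ptprc, Nckap1l and Man2b1 did not pass without those or 5xFAD/Cd5l tg/wt replicate 3. Rasal3 did not pass in 5 of the 9 fits. Among falling genes it was 2.06 for Malat1, 2.01 for Meg3, 1.63 for AI480526, 1.32 for Rnpc3, 1.27 for Clk1, 1.06 for Atp11b, 0.96 for Firre, 0.96 for Xist, 0.90 for Abcb1a and 0.79 for Snrnp70. It was -1.004 for Rgs6 and -0.66 for Slc5a7, and Slc5a7 did not pass in 4 of the 9 fits. Cd5l was at least 2982-fold higher in 5xFAD/Cd5l tg/wt, against a floor of 0.0627 CPM for 3 counts over the 5xFAD group, computed on scaled library sizes and covering counting error only.

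In 8 of 86 named genes 1 of the 6 amyloid libraries stood apart from the other 5. The cutoff would flag about 5% of sets drawn from 1 normal distribution. CPM values of 2 genotypes need not follow it, so no excess is read from this count. Replicate 1 of 5xFAD/Cd5l tg/wt held 94.3 CPM of Serpina3n, replicate 1 of 5xFAD 25.2 CPM of Cd74, and replicate 3 of 5xFAD/Cd5l tg/wt 7.9 CPM of Tlr2. In 5xFAD replicate 2, Slc18a3 was at 4.6, Calca at 1.68, Cbln3 at 4.83 and Gabra6 at 2.69 CPM, each the highest amyloid library. Cgnl1 was lowest in 5xFAD replicate 3, at 18 CPM.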

How the results depend on the processing

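The pooled count of 279 genes was 282 with RLE scaling, 259 with upper-quartile scaling, 278 with a filter of 1 CPM in 3 libraries, 249 with limma-voom and 282 with gene-length offsets. It was 430 with DESeq2 (289 higher, 141 lower), 973 with no filter (433 higher, 540 lower), 175 with 1 coefficient for the 6 amyloid libraries (159 higher, 16 lower) and 562 when wild-type replicate 3 and 5xFAD/Cd5l tg/wt replicates 2 and 3, whose regional markers differed, were left out together (317 higher, 245 lower). That fit leaves 1 library of 5xFAD/Cd5l tg/wt, replicate 1, which is assumed to vary like the other groups, so no count is given for it. The library kept was itself the lowest of the 9 in summed striatal genes (896 CPM) and choroid plexus and ependymal genes (354.9 CPM). The fit is therefore not free of libraries apart in regional markers. Leaving out 1 library gave 182 (wild-type replicate 3) to 432 (5xFAD/Cd5l tg/wt replicate 1, 237 higher and 195 lower). In all 9 such fits 124 of the 213 rising and 11 of the 66 falling genes passed, and all 213 and 66 had the same direction. The count between the amyloid genotypes, 1095, was 2063 with no filter, 630 without those 3 libraries and 278 to 2069 with 1 library left out. The cause was not tested. Same-numbered libraries had correlations of -0.100 to 0.154 after removal of genotype means, so the numbers were not taken to pair mice. With the replicate block the pooled count was 234. Of 85 named genes that passed, 55 did so in every fit without 1 library. No named gene that passed changed direction under the alternatives run, but the balance of the pooled count did, at 44.5% higher with no filter against 76.3%. Genes at a few counts per wild-type library, such as Ccl3, have fold changes limited by depth.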
